A study of Mus musculus with 16 samples.

Results

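The genes described here encode the collagens, laminins and other large proteins of the extracellular matrix, and the integrins and discoidin domain receptors with which cells hold on to them. They were chosen by symbol, as collagen, laminin and integrin chains plus *Fn1*, *Sparc*, *Nid1*, *Nid2*, *Hspg2*, *Ddr1* and *Ddr2*, and then by a level of at least 1 CPM (estimated counts scaled to library size) in at least 4 of the 16 libraries. Of 93 genes that matched by symbol, 47 passed, out of 13234 genes of the series that passed the same filter. The 47 were 26 matrix genes (15 of 44 collagens, 7 of 11 laminins and 4 of 5 others), 19 receptor genes (11 of 18 integrin α chains, 6 of 9 β chains and both discoidin domain receptors), and *Itgb1bp1* and *Itgb3bp*, whose symbols match but which encode no integrin subunit. *Ddr2* passed only through the DOX libraries, where it reached 1 CPM in 8 of 8 against 0 of 8 DMSO libraries, so no count over the 47 that includes it can be read as support. Near the limit, *Itga4* passed in 4 libraries and *Itga9* in 6, while *Itgb2* and *Col11a2* reached 1 CPM in 2 libraries and *Col1a1* in 1.

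The cells were mIMCD3, a wild-type mouse epithelial line from the kidney inner medulla of an animal transgenic for SV40. All were grown for 10 days on permeable filters in RenaLife medium with serum, and then received 2 µg/mL doxycycline (DOX), a tetracycline antibiotic, or the vehicle DMSO for 3 or 6 days. Polyadenylated RNA was sequenced in 4 libraries for each of the 4 groups. No source used here says whether the 4 were separate cultures, so p-values measure only the spread between these libraries, which may be technical.

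In an epithelium, laminin trimers and type IV collagen form the sheet called the basement membrane, which nidogens and the proteoglycan perlecan (*Hspg2*) tie together. Integrins are pairs of an α and a β chain, and the pairing sets the ligand: α1β1, α2β1 and α10β1 bind collagens, α3β1, α6β1, α6β4 and α7β1 bind laminins, and α5β1 and the αv pairs bind fibronectin and related proteins. αvβ6, an integrin of epithelia, also binds and activates latent TGF-β. DDR1 and DDR2 are receptor tyrosine kinases whose ligand is collagen.

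The libraries held between 16933343 and 23960860 estimated counts each, and log2 CPM correlated between replicates of a group at r = 0.981 to 0.992. All 8 epithelial marker genes were above 1 TPM (the same scaling with transcript length also taken out), and their summed level was 2660 to 2930 TPM with DMSO at 3 days, 1900 to 2200 with DOX at 3 days, 2920 to 3220 with DMSO at 6 days and 1870 to 2120 with DOX at 6 days, lower with DOX at both times. Of 6 collecting duct markers, 3 averaged over 1 TPM, with a sum of 6.84 to 10.0 TPM over the DMSO and 3.04 to 4.90 TPM over the DOX libraries, and the water channel gene *Aqp2*, which defines the segment, averaged 0.151 TPM. None of 8 fibroblast markers (sum 0.126 to 0.805 TPM) and none of 6 endothelial markers (sum 0.587 to 1.57 TPM) averaged 1 TPM, and of 6 leukocyte markers only *Cd68* did. The summed leukocyte list was 17.3 to 24.6 TPM over the DMSO libraries and 7.98 to 12.7 TPM over the DOX libraries. Nearly all of this sum was *Cd68*, at 7.76 to 24.4 TPM over all libraries. The next highest gene of the list, *Ptprc*, averaged 0.151 TPM. The sum therefore follows *Cd68* alone and cannot be read as a level of leukocytes. No listed marker was at 0 in all libraries. The part of these shifts in the results below was not tested, and in bulk RNA fewer cells of a type and less RNA per cell cannot be told apart.

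Long genes need a caution of their own. At 3 days the median log2 difference between DOX and DMSO was 0.19 in the shortest of 4 equal length bins of all tested genes and -0.18 in the longest, and at 6 days it was -0.03 and -0.05. Matrix and receptor genes are long, with a median longest transcript of 5784 nucleotides against 3268 for all tested genes, and 34 of the 47 fell in the longest bin. The trend was absent from replicate 1 of DOX at 3 days, where the longest bin stood 0.01 log2 units above the mean of the 8 DMSO libraries, against -0.14 to -0.20 in the other 3. The same library gave a median of -0.03 over the 47 genes, against -0.39 to -0.25 in the other 3. Counts at 3 days are therefore given also with a per-library length offset and without this library, and single genes where a call was lost or gained with the offset.

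**Figure D1:**
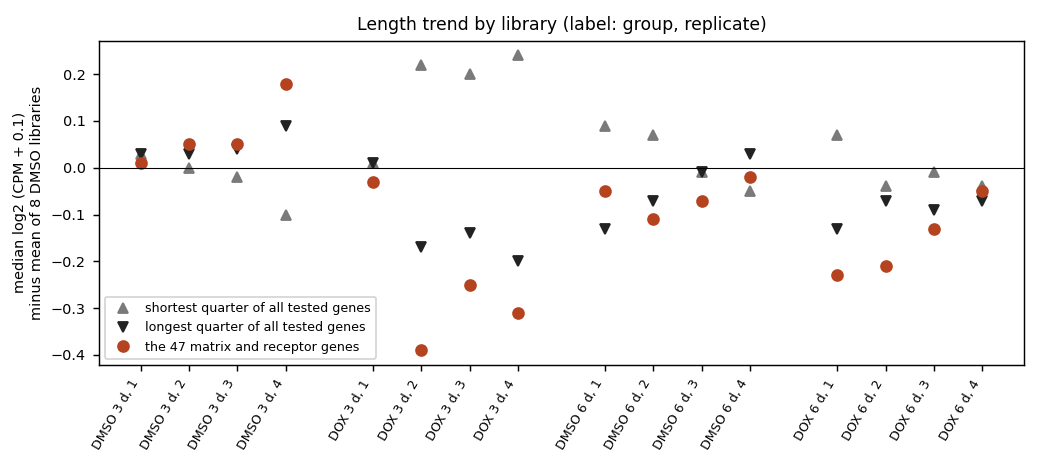
Length trend in each library. The vertical axis is the median log2(CPM + 0.1) minus the mean of the 8 DMSO libraries, for the shortest and the longest of 4 length bins of all tested genes and for the 47 matrix and receptor genes, and each position on the horizontal axis is 1 library. The 47 genes follow the longest bin downward in replicates 2 to 4 of DOX at 3 days and stay near 0 (-0.03) in replicate 1.

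Upstream sequence is shown for 4 receptor genes whose levels moved most or moved apart: *Ddr2* and *Itga1*, 2 collagen receptors with the largest rise and the largest fall, and *Itgb5* and *Itgb6*, alternative partners of αv that went in opposite directions at 6 days. The bases lie directly before the start given by RefSeq for GRCm38.p6, read 5′ to 3′ along the gene's strand, and capitals mark GC boxes (GGGCGG on either strand). They are chr1:170088945-170089194 on the minus strand for *Ddr2*, chr13:115101965-115102214 on the minus strand for *Itga1*, chr16:33829415-33829664 on the plus strand for *Itgb5* and chr2:60722644-60722853 on the minus strand for *Itgb6*.
Ddr2: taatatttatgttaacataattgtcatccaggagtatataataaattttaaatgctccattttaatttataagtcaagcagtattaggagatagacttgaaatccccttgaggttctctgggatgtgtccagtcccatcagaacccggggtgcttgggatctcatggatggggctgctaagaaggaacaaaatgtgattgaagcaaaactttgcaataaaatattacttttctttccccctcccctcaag
Itga1: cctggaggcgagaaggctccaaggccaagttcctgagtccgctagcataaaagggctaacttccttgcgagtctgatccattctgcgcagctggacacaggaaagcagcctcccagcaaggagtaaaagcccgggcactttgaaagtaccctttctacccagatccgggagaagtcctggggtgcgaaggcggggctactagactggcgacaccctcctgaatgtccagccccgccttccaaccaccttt
Itgb5: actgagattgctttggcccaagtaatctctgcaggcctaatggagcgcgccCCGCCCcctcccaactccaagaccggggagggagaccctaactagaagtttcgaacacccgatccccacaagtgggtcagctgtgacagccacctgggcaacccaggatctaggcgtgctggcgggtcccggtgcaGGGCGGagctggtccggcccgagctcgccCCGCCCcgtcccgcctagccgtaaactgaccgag
Itgb6: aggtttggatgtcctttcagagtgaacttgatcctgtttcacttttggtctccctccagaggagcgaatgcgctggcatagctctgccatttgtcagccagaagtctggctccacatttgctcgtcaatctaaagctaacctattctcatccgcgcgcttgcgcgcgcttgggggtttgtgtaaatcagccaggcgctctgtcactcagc
The *Itgb5* window holds 3 GC boxes and the other 3 windows hold none of them. For *Itgb6* the nearest 40 bases before the RefSeq start are exonic in GENCODE and were left out. The RefSeq start of *Ddr2* lies 21818 bases inside the 5′ end that GENCODE gives, so that its window is not upstream of every *Ddr2* transcript. Across RefSeq, 32.7% of 32851 windows of 250 bases hold a GC box, and of the 35 of the 47 genes with a window 17 do. The other motifs searched on both strands were AP-1 (TGANTCA, 6.75% of windows), the ATF4 composite site (TGATGNAA, 3.45%), TEAD (GGAATG, 12.6%) and the ETS core (CCGGAA, 12%). They were found in 1, 0, 3 and 3 of the 35. A match or its absence describes these letters only.

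With DMSO alone the 47 genes spanned over 3 orders of magnitude in TPM. *Itgb1*, the β chain shared by most matrix-binding integrins, was highest at 202 ± 15.4 TPM (SD, n = 8), and high levels were also found for the laminin receptor chain *Itga3* at 136 ± 12.7 and the basement membrane collagen *Col18a1* at 95.8 ± 10.7. *Itga3* lay above *Col18a1* in 8 of 8 libraries without overlap of their ranges. From *Col18a1* down to *Itga4*, only *Col12a1* over *Itga4* had neighbouring ranges that did not overlap.

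Of the laminins, *Lamb3* and *Lama3*, whose chains occur together at epithelial anchoring sites, were at 47.1 ± 6.14 and 33.1 ± 3.17 TPM. The 3 chains of laminin-511 were all present, with *Lama5* at 84.1 ± 17.4, *Lamb1* at 60.9 ± 7.09 and *Lamc1* at 35.2 ± 3.80 TPM. Among type IV collagens the α3, α4 and α5 chains led, with *Col4a4* at 7.65 ± 1.44, *Col4a3* at 7.38 ± 1.48 and *Col4a5* at 6.08 ± 0.981 TPM. *Col4a1* and *Col4a2*, which encode the chains found in nearly all basement membranes, were at 1.35 ± 0.438 and 0.558 ± 0.118 TPM. The fibrillar collagens of connective tissue were near the limit of detection: *Col1a1* had 5 to 24 estimated counts per library, and *Col1a2* and *Col3a1* 0 to 4 each, where 3 counts is the level that a count of 0 still allows. Every one of the 47 levels was within 1 SD of its mean when the 3-day or the 6-day DMSO libraries were taken alone. With 4 of the 8 libraries at each time this follows from arithmetic, so it says nothing on stability over time.

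**Figure D2:**
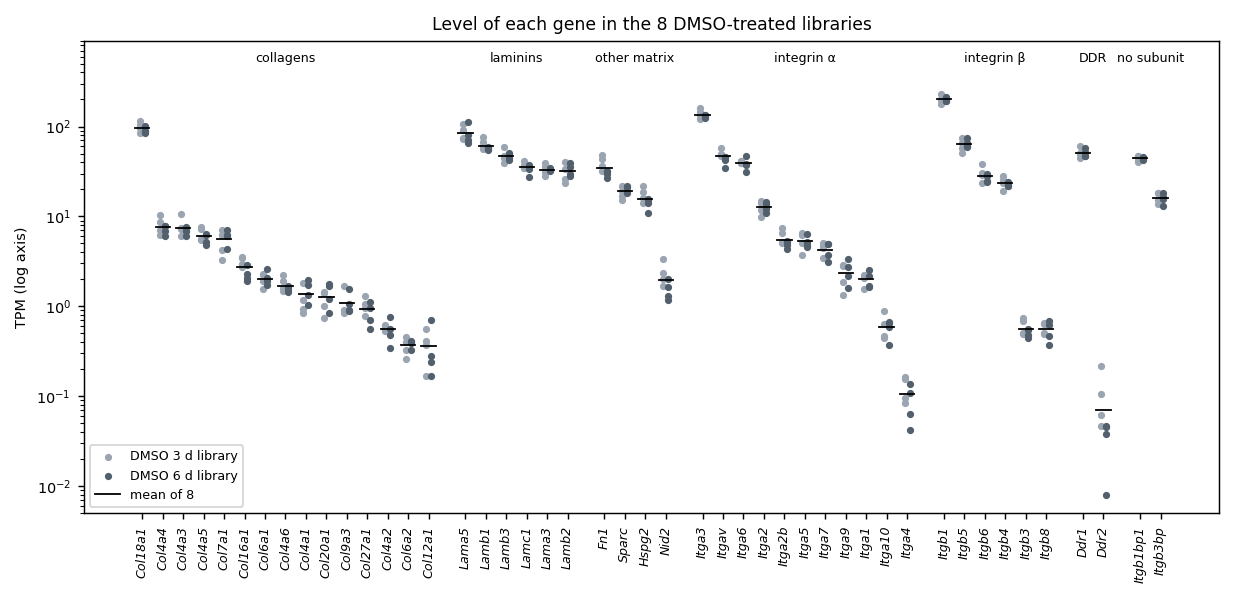
Level of the collagen, laminin, integrin and other genes reported here in the 8 DMSO-treated libraries. The vertical axis is TPM on a log scale, points are libraries (light for 3 days, dark for 6 days) and bars are means of 8. Integrin β1 (202 TPM) and *Itga3* (136 TPM) stand near the top and *Ddr2* (0.0711 TPM) at the bottom.

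The question of the series is how DOX affects the transcriptome of mIMCD3 cells. A gene was called changed where edgeR's test for a fold change beyond 1.2 gave an adjusted p under 0.05 over all 13234 genes. At 3 days 14 of the 47 genes were called, 29.8% against 12.5% of all genes tested, and 13 of them were lower and 1 higher (7.22% and 5.30% of all genes). At 6 days 16 were called, 8 higher and 8 lower, against 21.6% of all genes tested (10.0% higher and 11.6% lower). At 3 days the 4 DOX libraries did not overlap the 4 DMSO libraries for 22 of the 47 genes, 2 higher and 20 lower, against 38.6% of all genes tested (18.8% higher and 19.8% lower), and at 6 days for 21, 9 higher and 12 lower, against 43.0% (22.1% and 20.9%). Among the genes called at both times were *Ddr2*, which rose, and *Itga1*, *Itga6*, *Itgav*, *Itgb6*, *Col27a1* and *Col6a1*, which fell. With the length offset 8 genes were called at 3 days, 7 of them shared with the main fit, so the calls of *Col6a1*, *Itga3*, *Itga7*, *Itgb3*, *Itgb4*, *Itgb6* and *Lamb3* at 3 days were lost and *Col7a1* was added. At 6 days it kept all 16 and added *Itga10*. Over all genes tested the offset gave 10.4% called at 3 days and 22.5% at 6 days. Without the offset 15.0% of the longest length bin was called at 3 days. Without replicate 1 of DOX at 3 days 22 of the 47 were called at that time, against 17.3% of all genes tested, and 6 with the length offset as well, against 11%.

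**Figure D3:**
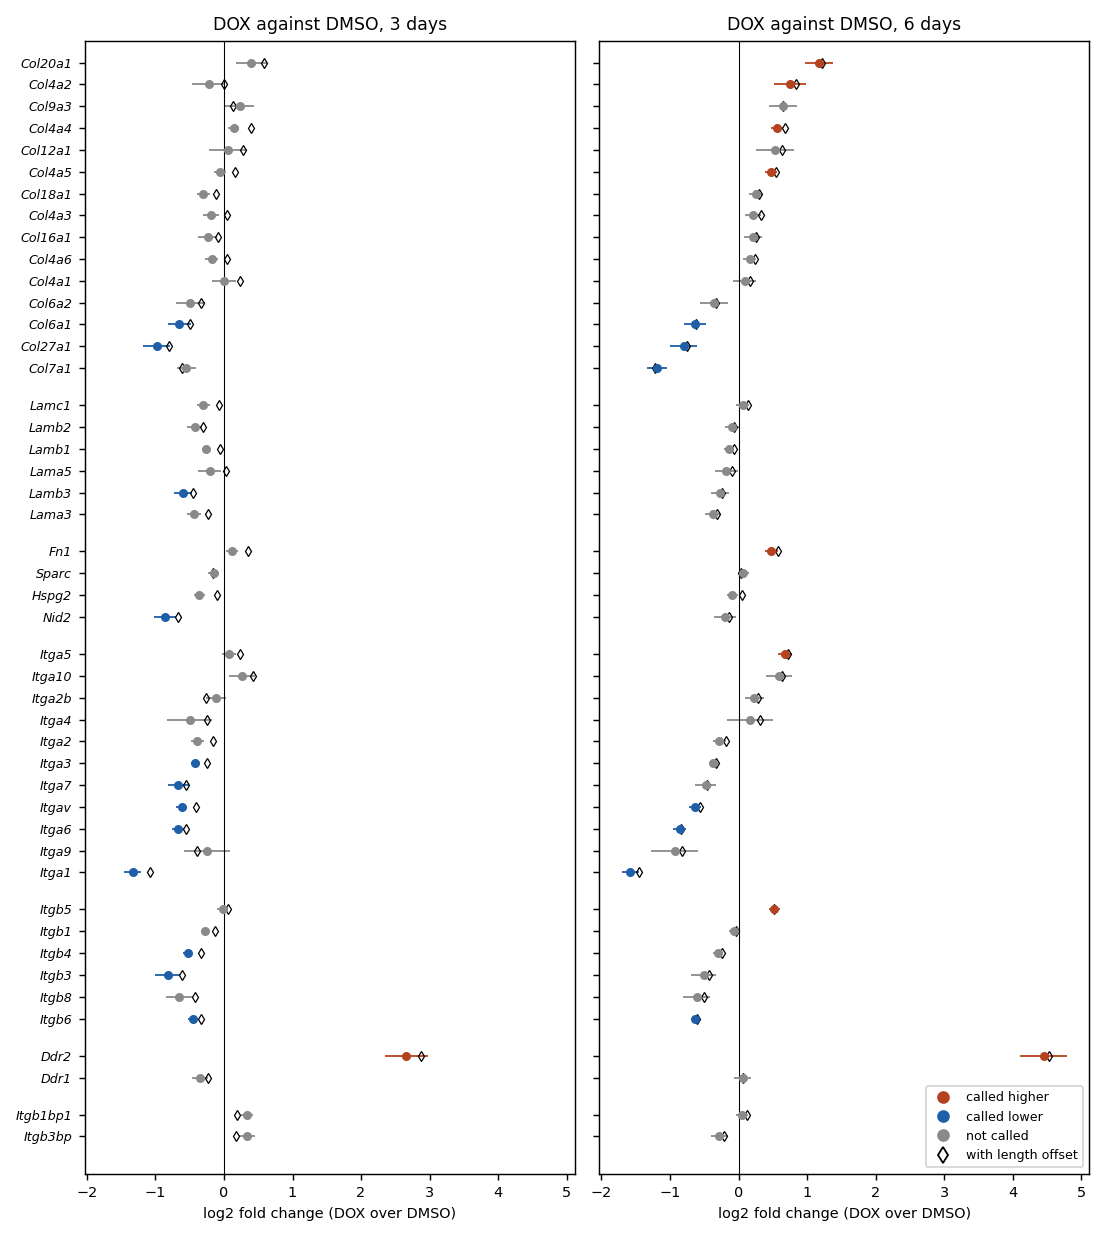
DOX effect on the genes reported here at 3 days (left) and 6 days (right). The horizontal axis is the log2 fold change of DOX over DMSO with its SE from edgeR, filled circles are called higher (red), called lower (blue) or not called (grey), and open diamonds are the same fold change with the length offset. *Ddr2* stands alone on the right at 2.66 and 4.45, *Itga1* is lowest at -1.33 and -1.58, and the diamonds lie to the right of most circles at 3 days and near them at 6 days.

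Among the collagen receptors, *Ddr2* (ENSMUSG00000026674.9, chromosome 1) had 0.490, 0.209, 0.744 and 0.347 CPM with DMSO at 3 days, and 2.00, 3.19, 2.06 and 3.71 CPM with DOX. At 6 days it had 0.168, 0.276, 0.0542 and 0.314 CPM with DMSO, and 4.62, 4.68, 5.42 and 3.93 CPM with DOX. Every DOX library lay above every DMSO library, although these are low levels, with 1 to 13 estimated counts in a DMSO library, 38 to 68 with DOX at 3 days and 80 to 115 with DOX at 6 days. Since *Ddr2* passed the filter through the DOX libraries alone, its log2 fold changes of 2.66 (SE 0.315) at 3 days and 4.45 (SE 0.343) at 6 days are a description and no p is given for them. An antisense gene, 3110045C21Rik, shares 90 exonic bases with *Ddr2* and was at 1.16, 1.25, 1.29 and 0.728 CPM in the DMSO 3-day, DOX 3-day, DMSO 6-day and DOX 6-day groups. Whether its reads enter the values of *Ddr2* was not tested.

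*Ddr1*, the discoidin receptor typical of epithelia, was at 141 ± 10.4 and 111 ± 23.2 CPM with DMSO and DOX at 3 days and at 135 ± 16.1 and 141 ± 15.0 CPM at 6 days (SD, n = 4), with overlapping libraries. It was not called at either time (adjusted p = 0.356 and 1). Even with DOX, *Ddr1* exceeded *Ddr2* by 27.1 to 113 times in TPM, against 280 to 6490 times with DMSO. The DMSO ratios rest on few counts of *Ddr2*, and the highest of them on 1 estimated count, in replicate 3 of DMSO at 6 days.

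*Itga1* (ENSMUSG00000042284.10, chromosome 13), the α chain of the collagen receptor α1β1, had 16.5, 17.5, 15.0 and 17.5 CPM with DMSO at 3 days and 6.71, 5.83, 6.67 and 7.32 CPM with DOX. After 6 days it had 15.1, 15.6, 13.9 and 22.2 CPM with DMSO and 4.98, 6.32, 5.56 and 5.35 CPM with DOX. The groups were far apart at both times. It fell by 1.33 on the log2 scale at 3 days (SE 0.125, edgeR adjusted p = 4.92e-07) and by 1.58 at 6 days (SE 0.126, adjusted p = 1.07e-08), the largest fall among the 47 genes at both times. A short gene on the same strand, Gm49395, shares 685 exonic bases with it and was below 0.5 CPM in every group mean.

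The α chains of the other collagen-binding integrins were not called. *Itga2* was at 73.2 ± 7.45 and 56.1 ± 7.24 CPM at 3 days (log2 fold change -0.39, adjusted p = 0.161) and at 72.6 ± 5.80 and 59.7 ± 6.16 CPM at 6 days. Every DOX library of *Itga2* lay below the DMSO libraries at 3 days, and the groups overlapped at 6 days. *Itga10* was at 1.85 ± 0.351 and 2.80 ± 0.280 CPM at 6 days, with every DOX library above the DMSO libraries but an adjusted p of 0.0658. Their partner *Itgb1* was at 623 ± 16.2 and 518 ± 34.8 CPM at 3 days and at 601 ± 28.3 and 574 ± 42.6 CPM at 6 days, and was not called (adjusted p = 0.643 and 1). At 3 days it too was lower in every DOX library (log2 fold change -0.27), and at 6 days its groups overlapped.

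**Figure D4:**
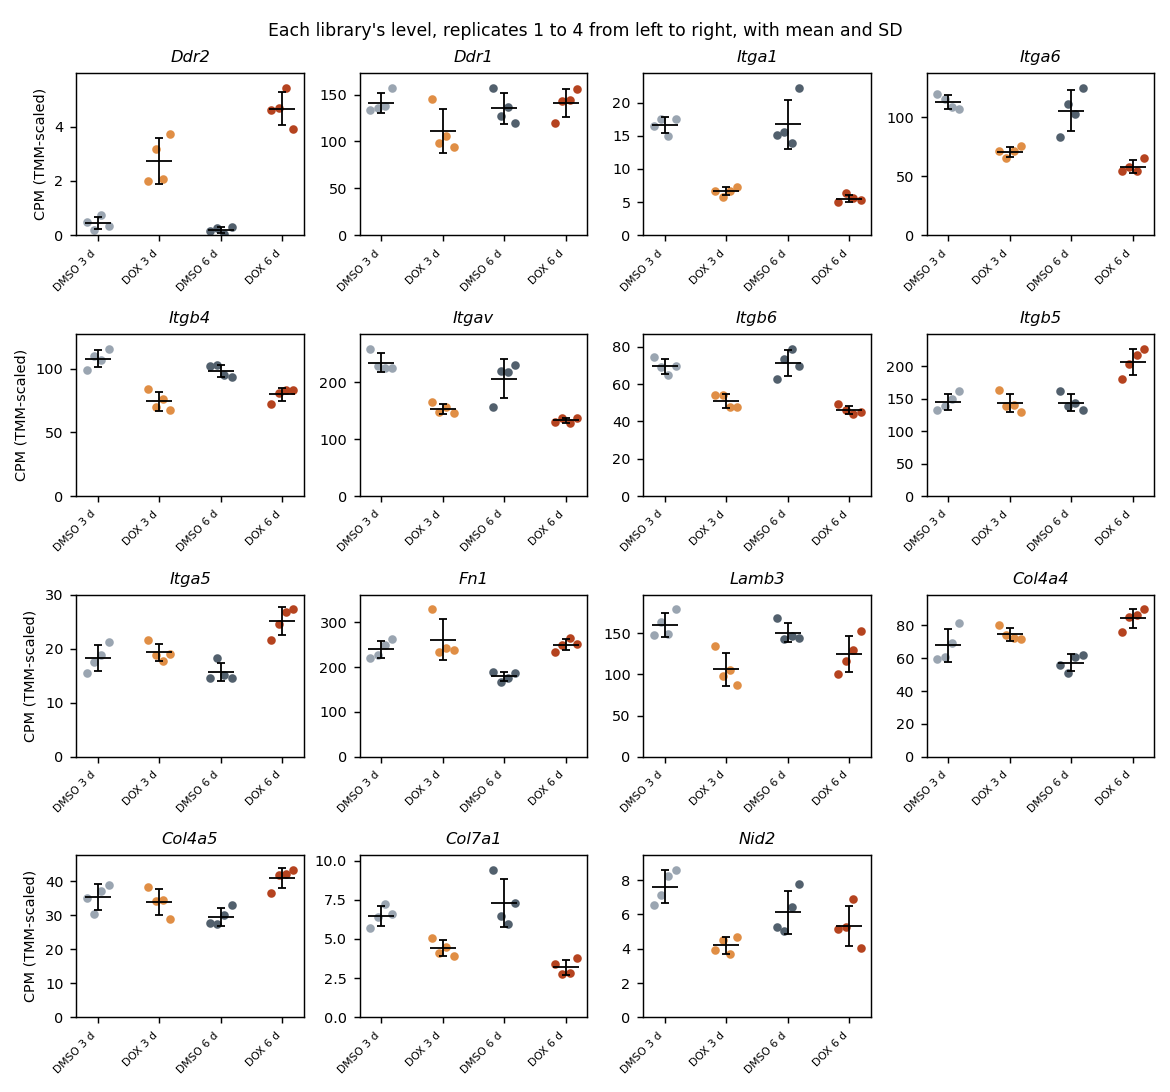
TMM-scaled CPM of 15 matrix and receptor genes in each library. Each panel is 1 gene with a linear axis from 0, points are libraries of the 4 groups and black marks are the mean and SD of 4. *Ddr2* and *Itga1* separate DOX from DMSO at both times, *Itgb5*, *Itga5* and *Col4a5* separate them only at 6 days, and *Nid2* only at 3 days.

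Laminin receptor chains were lower with DOX, 4 of them at 3 days and *Itga6* at both times. *Itga6*, which pairs with β4 in the hemidesmosome and with β1, had 120, 116, 109 and 107 CPM with DMSO at 3 days and 71.2, 65.2, 71.4 and 75.8 CPM with DOX. The 6-day libraries had 83.2, 111, 103 and 125 CPM with DMSO and 54.2, 58.3, 54.3 and 65.8 CPM with DOX. No libraries overlapped, and it fell by 0.67 (SE 0.0916, edgeR adjusted p = 0.00053) and by 0.86 (SE 0.0922, adjusted p = 4.29e-06) on the log2 scale.

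Its partner *Itgb4* had 99.5, 110, 107 and 116 CPM with DMSO at 3 days and 84.3, 70.2, 76.3 and 67.7 CPM with DOX, a fall of 0.53 (edgeR adjusted p = 0.00126). The values at 6 days were 102, 103, 95.5 and 93.8 CPM with DMSO and 72.7, 81.0, 83.2 and 83.5 CPM with DOX. The DOX libraries were lower at both times, but *Itgb4* was not called at 6 days (log2 fold change -0.30, adjusted p = 0.359) nor at 3 days with the length offset (-0.34, adjusted p = 0.216).

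*Itga3*, the most abundant α chain, had 519, 519, 532 and 557 CPM with DMSO at 3 days and 454, 370, 389 and 380 CPM with DOX, a fall of 0.42 (edgeR adjusted p = 0.0329). At 6 days it had 494, 464, 465 and 475 CPM with DMSO and 335, 362, 373 and 400 CPM with DOX, again without overlap (log2 fold change -0.37, adjusted p = 0.0796). The call at 3 days was lost without replicate 3 or 4 of DMSO or replicate 2, 3 or 4 of DOX, and with the length offset. *Itga7*, the other laminin-binding α chain, had 14.9, 10.6, 14.4 and 13.5 CPM with DMSO at 3 days and 10.0, 7.27, 9.38 and 6.61 CPM with DOX, a fall of 0.67 (adjusted p = 0.0178). It had 13.5, 9.16, 13.4 and 9.06 CPM with DMSO at 6 days and 7.79, 7.97, 7.21 and 9.23 CPM with DOX, where the groups overlapped (adjusted p = 0.11). Its call at 3 days was lost without replicate 2 or 4 of DOX.

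Among the laminins, *Lamb3* had 148, 164, 149 and 179 CPM with DMSO at 3 days and 134, 97.6, 105 and 87.5 CPM with DOX, a fall of 0.60 (edgeR adjusted p = 0.024) that was lost without replicate 4 of DMSO or replicate 2 or 4 of DOX. The 6-day libraries had 168, 143, 147 and 144 CPM with DMSO and 101, 116, 129 and 153 CPM with DOX, with overlap (adjusted p = 0.578). *Lama3*, whose chain pairs with that of *Lamb3*, was at 164 ± 14.5 and 121 ± 23.7 CPM at 3 days and at 155 ± 2.58 and 119 ± 15.6 CPM at 6 days, and was not called (adjusted p = 0.106 and 0.171). Both genes had log2 fold changes below 0 at both times.

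The laminin-511 chains gave log2 fold changes of -0.21 for *Lama5*, -0.26 for *Lamb1* and -0.30 for *Lamc1* at 3 days, and of -0.18, -0.14 and 0.06 at 6 days, none of them called. The β2 chain *Lamb2* gave -0.43 at 3 days (adjusted p = 0.129) and -0.09 at 6 days.

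Genes of the αv integrins went both ways. *Itgav* (ENSMUSG00000027087.11, chromosome 2) had 259, 229, 225 and 225 CPM with DMSO at 3 days and 165, 147, 156 and 146 CPM with DOX. The values at 6 days were 156, 220, 218 and 231 CPM with DMSO and 130, 137, 128 and 137 CPM with DOX. It was lower in every DOX library and fell by 0.62 (SE 0.0874, edgeR adjusted p = 0.00115) and by 0.64 (SE 0.0876, adjusted p = 0.000353). The call at 3 days was lost with the length offset and without replicate 1 of DOX together.

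*Itgb6* (ENSMUSG00000026971.15, chromosome 2), found only with αv, had 74.5, 69.0, 65.0 and 69.7 CPM with DMSO at 3 days and 53.9, 54.4, 47.9 and 47.5 CPM with DOX. At 6 days it had 62.7, 73.4, 79.0 and 69.8 CPM with DMSO and 49.2, 46.1, 44.0 and 44.8 CPM with DOX. It fell by 0.45 (SE 0.0701, edgeR adjusted p = 0.0174) and by 0.63 (SE 0.0702, adjusted p = 4e-05), and at 3 days the call was lost with the length offset or without replicate 1 of DMSO or replicate 3 or 4 of DOX.

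*Itgb5* (ENSMUSG00000022817.15, chromosome 16), another partner of αv and a receptor for vitronectin, was called at 6 days alone, and higher. It had 132, 138, 149 and 161 CPM with DMSO at 3 days and 164, 139, 140 and 130 CPM with DOX, with full overlap. After 6 days it had 162, 139, 143 and 132 CPM with DMSO and 180, 203, 217 and 227 CPM with DOX. It rose by a log2 fold change of 0.52 at 6 days (SE 0.0834, edgeR adjusted p = 0.0044), against -0.02 at 3 days. *Itgb6* per *Itgb5* in TPM was 0.466 to 0.509 with DMSO and 0.300 to 0.368 with DOX at 3 days, and 0.397 to 0.428 and 0.151 to 0.223 at 6 days, so the groups did not overlap at either time, again without a test.

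Apart from *Itgb1*, whose high level is given above, the 2 remaining αv partners were low. *Itgb3* had 2.82, 3.51, 2.40 and 3.34 CPM with DMSO at 3 days and 1.95, 1.84, 1.63 and 1.42 CPM with DOX, a fall of 0.82 (edgeR adjusted p = 0.0106) that was lost with the length offset. The 6-day libraries had 2.29, 2.25, 2.65 and 2.57 CPM with DMSO and 1.31, 1.44, 2.07 and 2.06 CPM with DOX, lower in every DOX library without a call (adjusted p = 0.14). *Itgb8* was at 4.07 ± 0.453 and 2.59 ± 0.455 CPM at 3 days and at 3.47 ± 0.919 and 2.27 ± 0.502 CPM at 6 days (adjusted p = 0.0676 and 0.0679).

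The fibronectin receptor chain *Itga5* (ENSMUSG00000000555.8, chromosome 15) had 15.5, 17.6, 18.8 and 21.3 CPM with DMSO at 3 days and 21.6, 18.8, 17.7 and 19.1 CPM with DOX, which overlapped. The values at 6 days were 14.6, 18.2, 15.2 and 14.6 CPM with DMSO and 21.6, 24.5, 26.8 and 27.3 CPM with DOX. It rose by 0.68 at 6 days (SE 0.0994, edgeR adjusted p = 0.000414), against 0.07 at 3 days. Its ligand fibronectin, *Fn1* (ENSMUSG00000026193.15, chromosome 1), had 221, 226, 249 and 262 CPM with DMSO at 3 days and 329, 234, 243 and 238 CPM with DOX, with replicate 1 of DOX apart from the rest. At 6 days *Fn1* had 189, 167, 175 and 186 CPM with DMSO and 234, 250, 264 and 251 CPM with DOX, a rise of 0.48 (SE 0.0887, adjusted p = 0.0158). The DOX libraries of 6 days lay within the range of the DMSO libraries of 3 days, except for replicate 3 at 264 CPM, and the DMSO libraries were lower at 6 days than at 3 days. *Itga5* per *Itgav* in TPM was 0.0766 to 0.135 with DMSO and 0.142 to 0.187 with DOX at 3 days, and 0.0982 to 0.181 and 0.242 to 0.269 at 6 days.

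**Figure D5:**
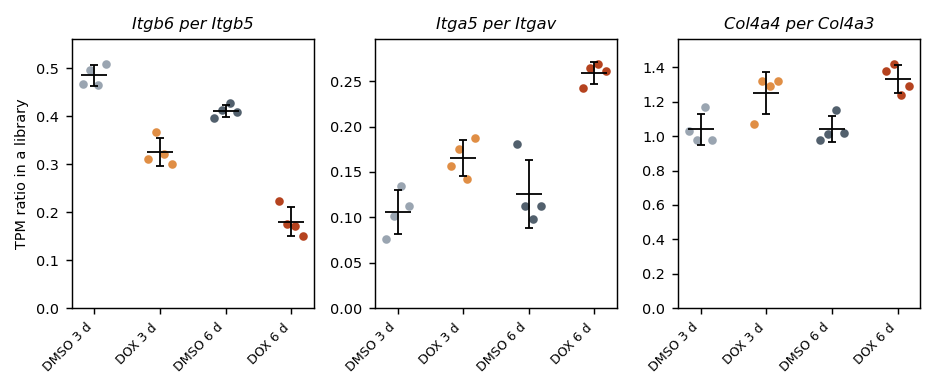
Ratio of 2 chains within each library, in TPM, for 3 pairs. Panels have linear axes from 0, points are libraries of the 4 groups and black marks are the mean and SD of 4. *Itgb6* per *Itgb5* falls from 0.397 to 0.428 with DMSO to 0.151 to 0.223 with DOX at 6 days, *Itga5* per *Itgav* is higher with DOX at both times, and *Col4a4* per *Col4a3* separates only at 6 days.

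Of 6 type IV collagen chains 3 were called higher at 6 days and 0 at 3 days, against 10.0% and 5.30% of all genes tested. At 3 days 0 of the 15 collagens were called higher by edgeR or DESeq2, with 0 at an unadjusted p under 0.05 in either and 2 in edgeR with the length offset. *Col4a4*, a chain of the α3α4α5 network of mature kidney basement membranes, had 59.3, 60.9, 69.5 and 81.4 CPM with DMSO at 3 days and 80.4, 74.4, 72.5 and 71.6 CPM with DOX. At 6 days it had 55.6, 51.1, 60.9 and 61.9 CPM with DMSO and 75.9, 85.3, 86.3 and 89.8 CPM with DOX. Overlap at 3 days gave way to separate groups at 6 days, with a log2 fold change of 0.56 (SE 0.0859, edgeR adjusted p = 0.00209). *Col4a5* had 35, 30.3, 37.1 and 39.0 CPM with DMSO at 3 days and 38.3, 34.1, 34.4 and 29.0 CPM with DOX. After 6 days it had 27.6, 27.3, 30.2 and 33.0 CPM with DMSO and 36.6, 41.7, 42.0 and 43.3 CPM with DOX, a rise of 0.47 (SE 0.0886, adjusted p = 0.0196) whose call was lost without replicate 2 of DMSO or replicate 4 of DOX. *Col4a3*, the remaining chain of that network, gave -0.19 and 0.21 and was not called (adjusted p = 0.963 and 0.807).

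*Col4a2* had 3.49, 3.47, 3.26 and 2.74 CPM with DMSO at 3 days and 3.20, 2.19, 2.98 and 2.73 CPM with DOX. The 6-day libraries had 2.57, 3.18, 1.84 and 3.98 CPM with DMSO and 4.37, 4.97, 7.26 and 2.90 CPM with DOX. Replicate 4 of DOX lay inside the DMSO range, and the call at 6 days (log2 fold change 0.75, SE 0.231, edgeR adjusted p = 0.0458) was lost without any of 11 of the 16 libraries, replicates 1, 2 and 3 of DOX at 6 days among them. Its partner *Col4a1*, which shares 22 exonic bases with it on the other strand, gave 0.00 and 0.09 and was not called.

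Other collagens went both ways. *Col7a1*, whose protein forms the anchoring fibrils below the basement membrane, had 5.70, 6.39, 7.21 and 6.56 CPM with DMSO at 3 days and 5.06, 4.13, 4.50 and 3.93 CPM with DOX (log2 fold change -0.55, edgeR adjusted p = 0.0565). The values at 6 days were 9.40, 6.44, 5.96 and 7.28 CPM with DMSO and 3.42, 2.75, 2.83 and 3.78 CPM with DOX, a fall of 1.19 (SE 0.145, adjusted p = 8.13e-06). *Col7a1* was lower in every DOX library at both times, and with the length offset it was called at 3 days too (adjusted p = 0.0313). *Col27a1*, a fibrillar collagen of cartilage, had 4.65, 4.39, 3.95 and 5.17 CPM with DMSO at 3 days and 3.10, 1.94, 1.90 and 2.24 CPM with DOX, a fall of 0.98 (adjusted p = 0.00374). It had 5.15, 3.54, 4.01 and 3.14 CPM with DMSO at 6 days and 1.81, 2.14, 1.98 and 3.14 CPM with DOX, groups that touched at 3.14 CPM, with a fall of 0.80 (adjusted p = 0.0113).

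*Col6a1*, a chain of the beaded microfibrils of type VI collagen, had 6.06, 7.81, 6.47 and 7.30 CPM with DMSO at 3 days and 4.16, 4.88, 3.96 and 4.70 CPM with DOX, a fall of 0.65 (edgeR adjusted p = 0.0321). It had 8.73, 7.32, 5.74 and 6.13 CPM with DMSO at 6 days and 2.92, 4.68, 4.48 and 5.74 CPM with DOX, a fall of 0.64 (adjusted p = 0.0203). The groups touched at 6 days, the 3-day call was lost without replicate 2 or 4 of DMSO or replicate 1 or 3 of DOX, and the 6-day call was lost without replicate 1 of either treatment. *Col20a1* had 3.12, 2.97, 3.72 and 4.99 CPM with DMSO at 3 days and 5.11, 3.94, 5.37 and 5.30 CPM with DOX, which overlapped. At 6 days *Col20a1* had 4.42, 3.27, 6.34 and 3.72 CPM with DMSO and 7.24, 11.1, 8.48 and 12.8 CPM with DOX, a rise of 1.17 (SE 0.204, adjusted p = 0.00061). An annotated gene on the same strand, BX649560.1, shares 79 exonic bases with *Col20a1* and was at 2.69 to 3.68 CPM in the group means.

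*Nid2*, a nidogen that links laminin to type IV collagen, had 6.55, 7.14, 8.24 and 8.60 CPM with DMSO at 3 days and 3.91, 4.53, 3.69 and 4.70 CPM with DOX. At 6 days it had 5.26, 5.02, 6.45 and 7.75 CPM with DMSO and 5.13, 5.26, 6.88 and 4.03 CPM with DOX. The fall of 0.86 at 3 days (SE 0.158, edgeR adjusted p = 0.00224) was not matched at 6 days, where the groups overlapped (log2 fold change -0.20, not called). The 3-day call was lost with the length offset and without replicate 1 of DOX together. *Rtraf*, on the other strand, shares 437 exonic bases with *Nid2* and was far higher, at 137 and 179 CPM with DMSO and DOX at 3 days and 135 and 155 CPM at 6 days. The study's methods name a directional library kit, but the strand setting of the authors' counting is not given in the sources used here. Whether reads of such pairs were told apart is therefore not known. *Hspg2* and *Sparc*, which encodes a collagen-binding protein, gave log2 fold changes of -0.36 and -0.15 at 3 days and -0.09 and 0.07 at 6 days without a call. The collagens *Col12a1*, *Col16a1*, *Col4a6*, *Col6a2* and *Col9a3* were not called either, with log2 fold changes from -0.49 (*Col6a2*) to 0.23 (*Col9a3*) at 3 days and from -0.36 to 0.65, for the same genes, at 6 days. *Col9a3* was at 1.23 ± 0.244 CPM with DMSO and 1.93 ± 0.368 CPM with DOX at 6 days, higher in every DOX library, with an edgeR adjusted p of 0.0526.

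Receptors and matrix genes are set side by side here, with 12.5% of all genes tested called at 3 days and 21.6% at 6 days. At 3 days 1 of 19 receptor genes, *Ddr2*, was higher and 8 lower (median log2 fold change -0.42), against 0 and 5 of 26 matrix genes (median -0.25, with 0 higher also at an unadjusted p under 0.05 and by DESeq2). With the length offset the counts were 1 and 3 for receptors (median -0.26) and 0 and 4 for matrix genes (median -0.08, with 3 higher at an unadjusted p under 0.05), against 10.4% of all genes tested. Without replicate 1 of DOX they were 1 and 11 for receptors and 0 and 10 for matrix genes, against 17.3% of all genes tested (1079 higher and 1216 lower). With the offset as well they were 1 and 2, and 0 and 3, against 11% (720 higher and 736 lower). At 6 days 3 receptor genes were higher and 4 lower (median -0.30), against 5 and 4 matrix genes (median 0.07). Medians over all tested genes were 0.00 at both times, and over their longest bin -0.18 and -0.05. Whether receptors and matrix genes differ was not tested. On the TPM scale the median of all genes moved by -0.15 at 3 days and -0.05 at 6 days, and no call changed direction there.

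Between the times, the DOX effects of 9 of the 47 genes differed by edgeR's test of the interaction without a fold threshold, against 17.0% of all genes tested (7.44% higher and 9.58% lower). This count moved with single libraries. It was 19 without replicate 1 of DOX at 3 days and 18 without replicate 1 of DOX at 6 days, against 28.6% and 22.6% of all genes tested. It was 6 with the length offset, against 13.7%. *Col18a1*, *Col4a4*, *Col4a5*, *Itga5*, *Itgb5*, *Nid2* and *Ddr2* had more positive effects at 6 days and *Col7a1* and *Itgb3bp* more negative ones. The largest difference was that of *Ddr2*, 1.79 (SE 0.522). This is a description without a p, since *Ddr2* passed the filter through the DOX libraries alone. *Ddr2* left the 9 without replicate 3 of DMSO at 3 days or at 6 days. It also left them with the length offset and without replicate 1 of DOX at 3 days together. *Itga5*, *Itgb5*, *Col4a5* and *Col18a1* differed by 0.61, 0.54, 0.53 and 0.55 (adjusted p = 0.00715, 0.00562, 0.00811 and 0.00733) and stayed called with each library left out and with the length offset. *Col18a1*, which was called at neither time, was at 415 ± 18.4 and 336 ± 57.5 CPM with DMSO and DOX at 3 days and at 365 ± 25.6 and 434 ± 40.9 CPM at 6 days. With a fold threshold of 1.2 edgeR called 0 of the 47 interactions, with 11 at an unadjusted p under 0.05, and DESeq2 without a threshold called 11. Of all 13234 genes these called 87 higher and 96 lower, and 1082 higher and 1514 lower.

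DMSO at 6 days against 3 days gave 0 called genes of the 47 with edgeR and a fold threshold of 1.2, as for all genes tested (0.00%), with 3 of the 47 at an unadjusted p under 0.05 and 0 by DESeq2 or limma. Without the threshold *Fn1* and *Hspg2* were lower at 6 days (log2 fold change -0.42 for each). Of the 47 genes 6 had DMSO libraries that did not overlap between the times, 0 of them higher at 6 days, against 12.2% of all genes tested (6.85% higher and 5.39% lower). Between the DOX groups 3 were called (3.94% of all genes tested, 1.37% higher and 2.58% lower): *Col20a1* (log2 fold change 1.01, adjusted p = 0.0141) and *Itgb5* (0.53, adjusted p = 0.0186) were higher at 6 days and *Itgb3bp* (-0.66, adjusted p = 0.0137) lower. The DOX libraries of 9 of the 47 did not overlap between the times, 6 higher and 3 lower at 6 days, against 25.4% of all genes tested (14.5% and 10.8%). Without replicate 2 of DOX at 3 days 0 of these were called, and with the length offset or by DESeq2 only *Col20a1* was. *Itgb3bp*, which encodes a centromere protein, and *Itgb1bp1*, whose product binds the β1 tail, were not called against DMSO at either time.

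Genes around the matrix and its receptors were counted from 4 lists, given against 12.5% and 21.6% of all genes called at 3 and 6 days (10.4% and 22.5% with the length offset, and at 3 days 17.3% without replicate 1 of DOX and 11% with both). Of 21 tested genes of collagen synthesis and crosslinking, 0 were called at 3 days (edgeR; 3 at an unadjusted p under 0.05, 0 by DESeq2). At 3 days 1 was higher and 1 lower with the length offset, also without replicate 1 of DOX, and without that library alone 2 were higher and 1 lower. At 6 days 4 were higher and 1 lower, which, picked out after their values were seen, were the crosslinking enzyme *Loxl4* (log2 fold change 0.70), the collagen export factor *Mia2* (0.54), the prolyl hydroxylase *P3h1* (0.92) and the lysyl hydroxylase *Plod3* (0.48), and *Pcolce2* (-0.97).

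Of 23 other matrix genes 1 was higher and 8 lower at 3 days, and 2 and 6 at 6 days. The 3-day counts were 1 and 5 with the length offset, 1 and 8 without replicate 1 of DOX, and 1 and 4 with both. The TGF-β binding protein *Ltbp4* rose from 3.37 ± 0.696 to 9.66 ± 1.18 CPM at 3 days (adjusted p = 8.49e-07) and from 3.43 ± 0.465 to 12.9 ± 2.06 CPM at 6 days (adjusted p = 4.35e-09). Osteopontin, *Spp1*, an αv ligand, fell from 792 ± 36.5 to 574 ± 52.3 CPM and from 914 ± 9.68 to 538 ± 38.7 CPM (adjusted p = 0.0106 and 8.82e-07). *Thbs1*, thrombospondin 1, fell from 121 ± 13.8 to 60.1 ± 13.2 CPM and from 113 ± 16.2 to 58.4 ± 5.18 CPM (adjusted p = 0.000486 and 0.000406). *Tnxb*, tenascin X, fell by 1.01 and 2.01 on the log2 scale, and its 3-day call was lost with the length offset, and also without replicate 1 or 2 of DMSO or replicate 1 or 3 of DOX. It was low, at 1.87 ± 0.439 and 0.921 ± 0.357 CPM with DMSO and DOX at 3 days. At 6 days it was at 1.42 ± 0.411 and 0.351 ± 0.0952 CPM. Since *Tnxb* passed the 1 CPM filter mainly through the DMSO libraries, its falls are a description. The counts of lower genes that include it cannot be read as support.

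Of 20 receptors and receptor-associated genes outside the chosen families 1 was higher and 3 lower at 3 days, and 3 and 4 at 6 days. The 3-day counts were 1 and 4 with the length offset, without replicate 1 of DOX 2 and 3, and with both 1 and 4. The dystroglycan gene *Dag1*, a laminin receptor, fell from 166 ± 7.82 to 97.7 ± 16 CPM at 3 days and from 150 ± 6.73 to 98.1 ± 8.30 CPM at 6 days (adjusted p = 2.34e-05 and 0.00045). *Bcam*, which binds the laminin α5 chain, fell from 190 ± 7.57 to 120 ± 5.43 CPM and from 173 ± 12.8 to 117 ± 13.6 CPM (adjusted p = 3.68e-05 and 0.000301). *Slc3a2*, a β1-associated amino acid transporter subunit, rose from 301 ± 11.5 to 447 ± 32.4 CPM and from 330 ± 41.9 to 672 ± 32.3 CPM (adjusted p = 0.00117 and 1.56e-08), its 3-day call being lost with the length offset and without replicate 1 of DOX together.

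Of 38 adaptors that tie integrins to actin, 0 were higher and 8 lower at 3 days (0 higher also at an unadjusted p under 0.05 and by DESeq2), and 3 and 10 at 6 days. With the length offset these counts were 1 and 5, and 3 and 9. Without replicate 1 of DOX the 3-day counts were 0 and 12, and with the offset as well 1 and 7. Tensin 1, *Tns1*, fell from 268 ± 35.1 to 112 ± 19.6 CPM at 3 days and from 203 ± 16.2 to 105 ± 15.8 CPM at 6 days (adjusted p = 8.82e-06 and 0.000117). Vinculin, *Vcl*, fell from 252 ± 7.52 to 162 ± 32.5 CPM and from 249 ± 3.35 to 149 ± 5.51 CPM (adjusted p = 0.000778 and 3.11e-05). *Lims2* and *Parvb*, which belong to the complex around integrin-linked kinase, fell by 0.81 and 0.74 at 3 days and by 1.52 and 0.91 at 6 days on the log2 scale.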

How the data were processed

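The 16 libraries were grouped from the sample labels into 4 groups of 4. Per the labels and the study's methods, reads were aligned to GRCm38.p6, and the authors deposited estimated counts per gene from salmon (0.14.10), not normalized, and TPM values, which also divide by transcript length. Estimated counts were rounded, genes with CPM of at least 1 in at least 4 libraries were kept, and edgeR 4.0.16 in R 4.3.3 fitted a quasi-likelihood model (robust, TMM scaling) with the 4 group means as terms. Treatments and times were compared with glmTreat at a fold threshold of 1.2, and the difference of DOX effects between times with glmQLFTest, two-sided, with Benjamini-Hochberg adjustment over all 13234 genes at 0.05. The SE is the log2 fold change over the square root of the F statistic. CPM values are TMM-scaled. Total counts of 16933343 to 23960860 a library set the precision of low genes. The alternatives were RLE scaling, DESeq2 1.42.0, limma 3.58.1 on log2(TPM + 1), other filters and thresholds, the replicate number as a block, the libraries of a comparison alone, each library left out, and a length offset from splines with 5 degrees of freedom, alone and, added after seeing the data, without replicate 1 of DOX at 3 days. The fit was tested on simulated data. Members called at 3 or 6 days are given by library, their partners by group, and from each list up to 4 genes called at both times. The members and lists were chosen with earlier results of these data known. Positions and lengths are from GENCODE M21 and upstream sequences from RefSeq GRCm38.p6, which matched 35 of the 47 genes. Reads were not processed again. The counts include 1 gene whose own values are not reported here.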

Additional observations from a re-analysis of the deposited data

Results flagged for a closer look

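The difference between the DOX effects at 6 and 3 days passed the interaction test for 9 of the 47 genes, near the share of all genes tested (17.0%, with 7.44% higher and 9.58% lower). *Ddr2* is among the 9 as a description only, since it passed the filter through the DOX libraries alone. On the log2 scale the effect at 6 days minus that at 3 days was 1.79 for *Ddr2*, 0.66 for *Nid2*, 0.61 for *Itga5*, 0.55 for *Col18a1*, 0.54 for *Itgb5*, 0.53 for *Col4a5*, 0.42 for *Col4a4*, -0.61 for *Itgb3bp* and -0.64 for *Col7a1*. For *Nid2* and *Col7a1* the call was lost without most of the single libraries and with the replicate block, and for *Col4a4* without replicate 4 of DMSO at 3 days, replicate 2 of DMSO at 6 days or replicate 4 of DOX at 6 days. With the length offset the calls of *Col4a4*, *Col7a1*, *Itgb3bp* and *Nid2* were lost and *Itgb6* was called (-0.28, edgeR adjusted p = 0.04).

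Beyond these, 3 values lay apart from the other replicates of their group: 329 CPM of *Fn1* in replicate 1 of DOX at 3 days, 259 CPM of *Itgav* in replicate 1 of DMSO at 3 days, and 168 CPM of *Lamb3* in replicate 1 of DMSO at 6 days, each the highest of its group. The check was made on 84 groups of 4 libraries, over genes called at either time, and chance flags about 1 in 20 groups.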

How the results depend on the processing

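The direction of every call at 3 or 6 days held in all alternatives run. *Itga1* and *Itga6* at 3 days, and *Col7a1*, *Itga1*, *Itga6*, *Itgav* and *Itgb6* at 6 days, were called in every alternative. RLE scaling, a stricter filter (1 CPM in all of the 16 libraries) and the replicate block changed no count by over 1.5 times. Against 14 genes at 3 days, 27 were called without a fold threshold, 8 with the length offset and 8 by DESeq2. The count was 7 by limma on log2(TPM + 1), and 6 with the length offset and without replicate 1 of DOX at 3 days. At 3 days all 13234 genes gave 3047 higher and 2935 lower without a threshold, and 413 and 606 by DESeq2. Of 13180 genes 85 were higher and 616 lower by limma, and 666 and 707 with the length offset. With the offset and without that library 720 were higher and 736 lower. Against 16 at 6 days, 27 were called without a threshold and 7 by limma. All genes tested gave 3396 higher and 3306 lower without a threshold, and 376 and 931 by limma. Against 9 interactions, 18 were called with no filter beyond 1 count in any library, 0 with a threshold of 1.2 and 0 by limma (11 and 15 at an unadjusted p under 0.05). All genes tested gave 87 higher and 96 lower interactions with that threshold, and 275 and 384 by limma. The share over all genes without a filter is not given here. Against 0 between the DMSO groups, 2 were called without a threshold, where all 13234 genes gave 43 higher and 19 lower. Against 3 between the DOX groups, 5 were called with no filter, 13 without a threshold, 1 with the length offset with or without that library, 1 by DESeq2 and 0 by limma (5 at an unadjusted p under 0.05). All 13234 genes gave 2066 higher and 1934 lower without a threshold, and 69 and 174 by DESeq2. Of 13180 genes 124 were higher and 185 lower with the length offset, and 45 and 41 by limma. With each library left out the counts ranged from 10 to 22 at 3 days, 14 to 18 at 6 days, 6 to 19 for the interaction, 0 to 5 between the DOX groups and 0 to 0 between the DMSO groups. The highest counts for 3 days (22) and the interaction (19) were those without replicate 1 of DOX at 3 days, and without replicate 1 of DOX at 6 days the interaction gave 18. Over all genes tested the shares were 17.3%, 28.6% and 22.6%, in that order. *Ddr2* at 3 days was not called by limma, where a pseudocount of 1 TPM exceeds its level. Same-numbered libraries did not deviate together (correlations of deviations -0.43 to 0.18). This cannot show whether they shared a culture or a day of handling, which the labels do not give. With that number as a block, 14, 16, 3, 7 and 0 genes were called at 3 days, at 6 days, between DOX groups, for the interaction and between DMSO groups. The share of all genes called with the block is not given here. Low genes such as *Ddr2* and *Itga4* are limited by depth, since 3 counts equal 0.125 to 0.177 CPM here.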
